A study of Mus musculus with 10 samples.

Results

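Vegfa, Angpt1, Angpt2, Flt1, Kdr, Tek, Tie1, Pecam1, Cdh5 and Plvap are the ligands, receptors and surface proteins through which blood vessels grow and are recognised. They were chosen by symbol, as VEGF and angiopoietin signalling genes and endothelial markers, and are 10 of the 29527 genes in the deposited table. All 10 passed the filter on low values that left 17268 genes for testing. RNA was sequenced in bulk from dissected pituitary intermediate lobes (IL) of mice aged 2 to 3 months. The study lists females and males in every genotype. The groups were 4 WT samples, 3 p27-/- samples, which lack both copies of Cdkn1b, the gene of the cell cycle inhibitor P27, and 3 p27-/-;Sox2+/- samples, which also lack a copy of the stem cell factor gene Sox2. The mutant alleles are carried by every cell, with no Cre driver in the labels, and both mutant groups share the loss of p27. Every value is a log2 normalised expression value, and adjusted p-values come from limma over all 17268 genes with a threshold of 0.05.

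VEGF-A is secreted by tissue cells and binds FLT1 and KDR on endothelial cells, the cells that line vessels. KDR carries most of the growth signal, and FLT1 binds VEGF-A tightly and can hold it back. ANGPT1 activates the receptor TEK and steadies vessels, ANGPT2 can oppose it, and TIE1 is a partner receptor of TEK. PECAM1 and VE-cadherin, the product of Cdh5, join endothelial cells to each other, and PLVAP forms the diaphragms of fenestrated capillaries such as those of endocrine glands. The IL of a WT mouse holds few vessels, whereas the anterior lobe next to it is richly supplied.

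Cdkn1b ranged from 8.39 to 8.85 in WT, from 8.04 to 8.27 in p27-/- and from 7.73 to 8.10 in p27-/-;Sox2+/- samples. Its transcript thus remained measurable in the mutants. It differed from WT by -0.43 in p27-/- samples (adjusted p = 0.047, a call kept in 6 of 22 other settings). The difference in p27-/-;Sox2+/- samples was -0.72 (adjusted p = 0.0085, kept in 21 of 22). Sox2 ranged from 7.34 to 7.75 in WT and from 6.88 to 7.07 in p27-/-;Sox2+/- samples, with an adjusted p of 0.0811. Xist, which marks female samples, ran from 9.22 to 14.82 in WT, from 8.78 to 15.01 in p27-/- and from 8.89 to 14.96 in p27-/-;Sox2+/- samples. The melanotroph hormone gene Pomc had a mean of 18.55 over the 10 samples, and all 5 melanotroph markers passed the filter. Of 8 anterior lobe markers 7 passed it, and of 6 posterior lobe markers all 6, so that RNA of the adjoining lobes was present. The anterior lobe markers were on average 1.68 above the mean of all samples in WT replicate 2 and 0.60 above it in p27-/- replicate 1, the next highest.

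Flt1 and Kdr, the VEGF-A receptors, were lower in both mutants than in WT, and they were the only ones of the 10 genes to pass the threshold in the comparisons with WT. In p27-/- samples Kdr fell 1.77-fold and Flt1 1.69-fold, and in p27-/-;Sox2+/- samples Flt1 fell 1.74-fold and Kdr 1.59-fold. The ligand genes Vegfa, Angpt1 and Angpt2 and the endothelial markers Pecam1, Cdh5 and Plvap did not pass it, nor did any of the 10 between the mutants. Angpt2 lay above WT in every p27-/- sample and below it in every p27-/-;Sox2+/- sample.

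The sequences upstream of Flt1 and Kdr are shown because these genes moved together. RefSeq promoter windows on GRCm38.p6 were found for 5 of the 10 genes. Each stretch holds the 250 bases before a RefSeq transcript start, 5′ to 3′ on the gene's own minus strand. Both lie inside the annotated gene span, which reaches further upstream to 147726438 for Flt1 and to 75979072 for Kdr. Capitals mark GGAAG, the core bound by ETS factors that are active in endothelium, or its complement CTTCC, and TGACGTCA, the cyclic AMP response element, both searched on both strands.
Flt1, chr5:147726012-147726261: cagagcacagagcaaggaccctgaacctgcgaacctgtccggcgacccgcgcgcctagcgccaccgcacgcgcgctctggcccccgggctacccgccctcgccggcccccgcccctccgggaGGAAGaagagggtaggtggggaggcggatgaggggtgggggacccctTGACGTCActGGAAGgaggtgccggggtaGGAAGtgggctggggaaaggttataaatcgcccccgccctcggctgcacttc
Kdr, chr5:75978456-75978705: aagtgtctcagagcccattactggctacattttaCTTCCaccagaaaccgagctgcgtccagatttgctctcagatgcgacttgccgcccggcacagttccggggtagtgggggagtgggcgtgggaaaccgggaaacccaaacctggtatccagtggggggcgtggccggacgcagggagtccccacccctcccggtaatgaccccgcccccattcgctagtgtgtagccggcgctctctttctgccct
The Flt1 stretch holds 3 ETS cores and 1 cyclic AMP response element, and the Kdr stretch holds 1 ETS core. GGAAG occurs in 64.1% of the 32851 RefSeq windows of this length and TGACGTCA in 1.55%. The HIF core GCGTG, found in 28.2% of windows, occurs 1 time in the Flt1 stretch and 2 times in the Kdr stretch, and the other HIF core, ACGTG, found in 16.6%, occurs in neither. These matches describe the letters of the windows and say nothing of which factors bind there.

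Kdr (ENSMUSG00000062960) lies on chromosome 5 from 75932827 to 75979072. Its values were 7.28, 7.02, 7.24 and 7.29 in WT, 6.20, 6.11 and 6.85 in p27-/- and 6.54, 6.39 and 6.70 in p27-/-;Sox2+/- samples. Every WT sample was above every mutant sample, and p27-/- replicate 3 was the highest of the mutants. For p27-/- the log2 fold change was -0.83 (95% interval -1.18 to -0.47, standard error 0.16, adjusted p = 0.0097). For p27-/-;Sox2+/- it was -0.67 (95% interval -1.02 to -0.32, standard error 0.16, adjusted p = 0.046). Between the mutants it was 0.16, with an interval from -0.22 to 0.53. The call in p27-/- was kept in 21 of 22 other settings and lost without p27-/- replicate 2 (adjusted p = 0.0527). The other call was kept in 8 of 22, and was lost without any 1 of the p27-/-;Sox2+/- replicates (adjusted p = 0.126, 0.208 and 0.0759), p27-/- replicate 1 (0.0566), WT replicate 1 (0.0624), WT replicate 3 (0.0842) or WT replicate 4 (0.10025). It was also lost with Xist as a covariate (adjusted p = 0.0533), no filter (0.0704), median centring (0.0515) and quantile normalization (0.0529).

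Flt1 (ENSMUSG00000029648) lies on chromosome 5 from 147561604 to 147726438. It stood at 6.56, 6.11, 6.20 and 6.61 in WT, at 5.52, 5.33 and 5.99 in p27-/- and at 5.30, 5.51 and 5.90 in p27-/-;Sox2+/- samples. Here too the WT samples were all above the mutants, and the third replicate of each mutant came nearest to them. For p27-/- the log2 fold change was -0.75 (95% interval -1.16 to -0.35, standard error 0.19, adjusted p = 0.029). For p27-/-;Sox2+/- it was -0.80 (95% interval -1.20 to -0.40, standard error 0.19, adjusted p = 0.038). Between the mutants it was -0.05, with an interval from -0.48 to 0.38. The call in p27-/- was kept in 16 of 22 other settings. It was lost without p27-/- replicate 1 (adjusted p = 0.105), p27-/- replicate 2 (0.125) or WT replicate 4 (0.0775). The call in p27-/-;Sox2+/- samples was kept in 12 of 22. It was lost without replicate 1 (adjusted p = 0.149) or 2 (0.158) of that genotype, p27-/- replicate 1 (0.055), WT replicate 1 (0.0578) or WT replicate 4 (0.0935). It was also lost with no filter (adjusted p = 0.060) and quantile normalization (0.0523).

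**Figure D1:**
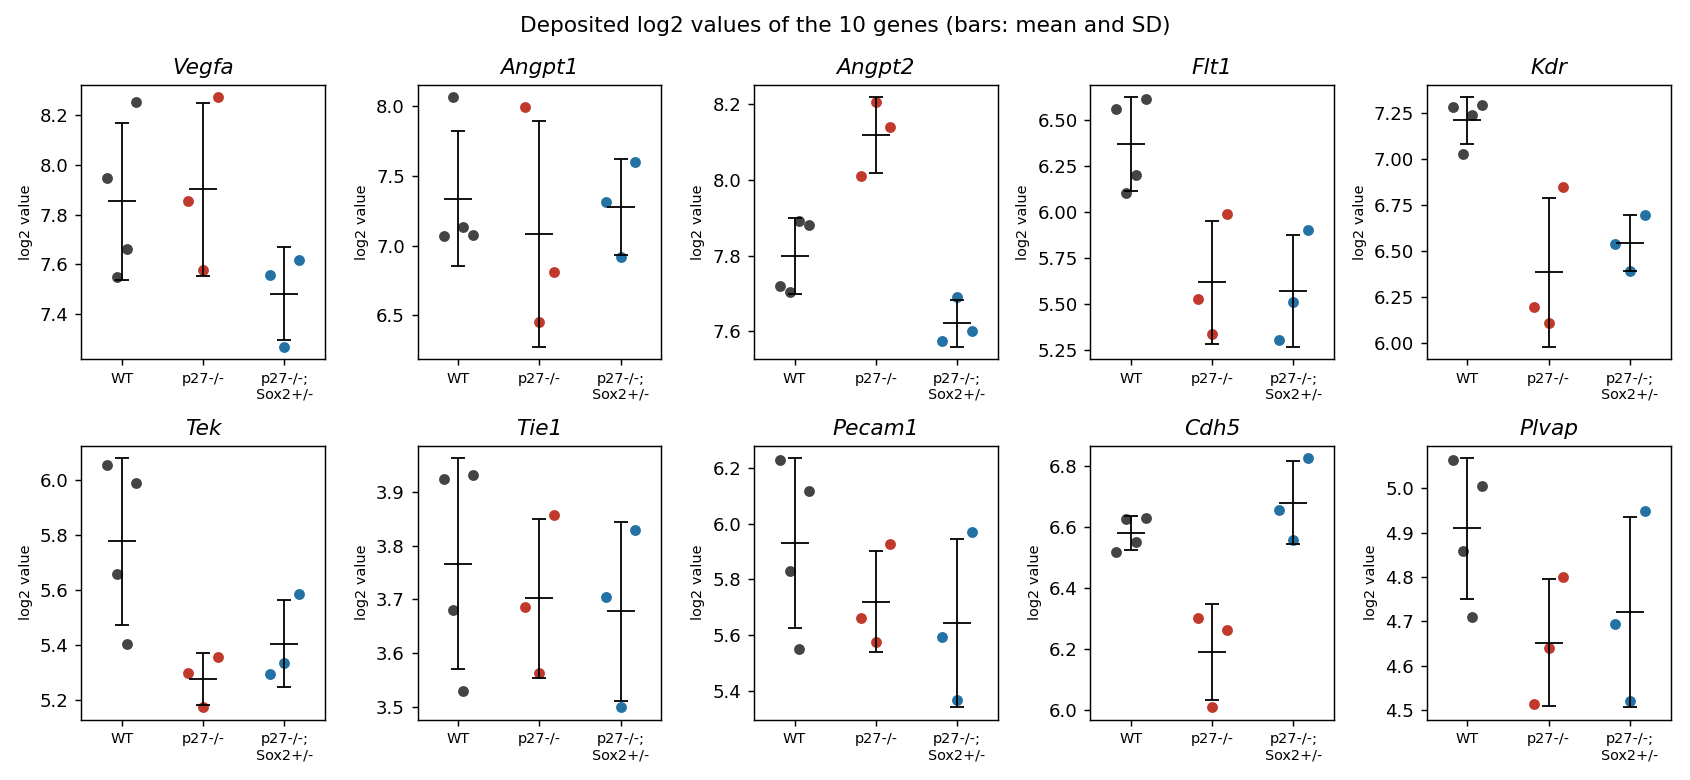
Log2 normalised values of the 10 genes (y axis, a scale of its own per gene) in WT (grey), p27-/- (red) and p27-/-;Sox2+/- (blue) samples, 1 point per sample, with bars for the mean and SD. The WT points of Kdr and Flt1 sit above all mutant points, and the Angpt2 points of the 3 genotypes do not overlap.

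The angiopoietin receptors gave smaller differences. Tek (ENSMUSG00000006386, chromosome 4, 94739086 to 94874976) had values of 6.05, 5.66, 5.40 and 5.99 in WT, 5.30, 5.17 and 5.36 in p27-/- and 5.29, 5.33 and 5.58 in p27-/-;Sox2+/- samples. All p27-/- samples were below WT, and p27-/-;Sox2+/- replicate 3 was above WT replicate 3. The log2 fold changes of -0.50 (adjusted p = 0.063) and -0.37 (adjusted p = 0.22) did not pass the threshold. The first passed it without WT replicate 3 (adjusted p = 0.0217) and with sample weights (0.0238). Tie1 (ENSMUSG00000033191, chromosome 4, 118471191 to 118489849) had values of 3.92, 3.68, 3.53 and 3.93 in WT, 3.69, 3.56 and 3.86 in p27-/- and 3.70, 3.50 and 3.83 in p27-/-;Sox2+/- samples. Its groups overlapped, and the fold changes of -0.06 and -0.09 had intervals from -0.32 to 0.19 and from -0.34 to 0.17. Tie1 lies closest of the 10 to the filter, and the deposited values of genes there vary less between samples, with a median SD within genotypes of 0.124 for the 1413 genes with a mean from 3.32 to 4 against 0.164 for the 4129 genes with a mean from 4 to 6.

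Of the ligands, Angpt2 (ENSMUSG00000031465, chromosome 8, 18690263 to 18741562) separated the genotypes. Its values were 7.72, 7.70, 7.89 and 7.88 in WT, 8.01, 8.21 and 8.14 in p27-/- and 7.57, 7.69 and 7.60 in p27-/-;Sox2+/- samples. The p27-/- samples were thus the highest and the p27-/-;Sox2+/- samples the lowest, and p27-/-;Sox2+/- replicate 2 and WT replicate 2 were nearly level. Compared with WT, the log2 fold change came to 0.32 for p27-/- (95% interval 0.11 to 0.53, adjusted p = 0.062). It came to -0.18 for p27-/-;Sox2+/- (95% interval -0.39 to 0.03, adjusted p = 0.37). Between the mutants it was -0.50 (95% interval -0.72 to -0.27, adjusted p = 0.116), which ranked 47 of 17268 genes by p. None of these passed the threshold as fitted, and with sample weights the first (adjusted p = 0.0399) and the last (0.0118) did. In that fit p27-/-;Sox2+/- replicate 2 had a weight of 3.46, and replicates 1 and 3 had 0.88 and 0.77.

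Vegfa (ENSMUSG00000023951) lies on chromosome 17 from 46016993 to 46032377. It stood at 7.95, 7.55, 7.66 and 8.25 in WT, 7.86, 7.58 and 8.27 in p27-/- and 7.56, 7.27 and 7.62 in p27-/-;Sox2+/- samples. The groups overlapped, and each held a wide range except p27-/-;Sox2+/-. The log2 fold changes were 0.05 for p27-/- (95% interval -0.34 to 0.44, adjusted p = 0.90) and -0.37 for p27-/-;Sox2+/- (95% interval -0.76 to 0.02, adjusted p = 0.31).

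Angpt1 (ENSMUSG00000022309, chromosome 15, 42424667 to 42676977) was 7.07, 8.06, 7.13 and 7.08 in WT, 7.99, 6.45 and 6.81 in p27-/- and 7.32, 6.92 and 7.60 in p27-/-;Sox2+/- samples. WT replicate 2 and p27-/- replicate 1, the samples with the highest anterior lobe markers, had its highest values, and the part of that tissue in them was not tested. The log2 fold changes were -0.25 (95% interval -0.94 to 0.43) and -0.06 (-0.74 to 0.63). Between the mutants the value was 0.20. Without those samples the values became -0.47 in p27-/-, 0.18 in p27-/-;Sox2+/- and 0.65 between the mutants, with adjusted p-values of 0.186, 0.599 and 0.385.

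Among the endothelial markers, Cdh5 (ENSMUSG00000031871, chromosome 8, 104101613 to 104144504) was 6.52, 6.63, 6.55 and 6.63 in WT, 6.30, 6.01 and 6.26 in p27-/- and 6.66, 6.56 and 6.83 in p27-/-;Sox2+/- samples. The p27-/- samples were below all others, and the other groups overlapped. Log2 fold changes were -0.39 for p27-/- (95% interval -0.64 to -0.14, adjusted p = 0.056), 0.10 for p27-/-;Sox2+/- (adjusted p = 0.71) and 0.49 between the mutants (95% interval 0.22 to 0.76, adjusted p = 0.23). The value in p27-/- passed the threshold when only genes with a mean of at least 50 were tested (adjusted p = 0.0482), with no trend (0.0373) and with sample weights (0.0362), and the value between the mutants with sample weights (0.0461).

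Pecam1 (ENSMUSG00000020717, chromosome 11, 106654213 to 106715281) was 6.23, 5.83, 5.55 and 6.12 in WT, 5.66, 5.58 and 5.93 in p27-/- and 5.59, 5.37 and 5.97 in p27-/-;Sox2+/- samples. Plvap (ENSMUSG00000034845, chromosome 8, 71497753 to 71511806) was 5.06, 4.86, 4.71 and 5.004 in WT, 4.51, 4.64 and 4.80 in p27-/- and 4.69, 4.52 and 4.95 in p27-/-;Sox2+/- samples. Both genes overlapped between all groups, and the third replicate of each mutant was the highest of its genotype. The log2 fold changes of Pecam1 were -0.21 (adjusted p = 0.51) and -0.29 (adjusted p = 0.42). Those of Plvap were -0.26 (95% interval -0.53 to 0.02) and -0.19 (-0.46 to 0.09). In bulk tissue, a smaller share of RNA from endothelial cells, whatever its source, and less of a transcript per endothelial cell cannot be told apart.

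In p27-/- against WT, 2 of the 10 genes were called, both lower, where 7.78% of all tested genes were called and 4.62% were called lower. The samples of 5 of the 10 did not overlap, 4 lower and 1 higher, against 20.6% of all tested genes. In p27-/-;Sox2+/- against WT, 2 were called, both lower, against a background of 2.71%, with 1.88% called lower, and 3 did not overlap, all lower, against 15.0%. Between the mutants limma called none, against 0.145%, although Vegfa, Angpt2 and Cdh5 had an unadjusted p under 0.05, and Angpt2 and Cdh5 did not overlap, against 15.3%. Their median log2 fold changes in these comparisons were -0.26, -0.24 and 0.02, where those of all tested genes were 0.0087, 0.0098 and -0.0044. Both comparisons with WT use the same 4 WT samples and are not independent of each other.

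**Figure D2:**
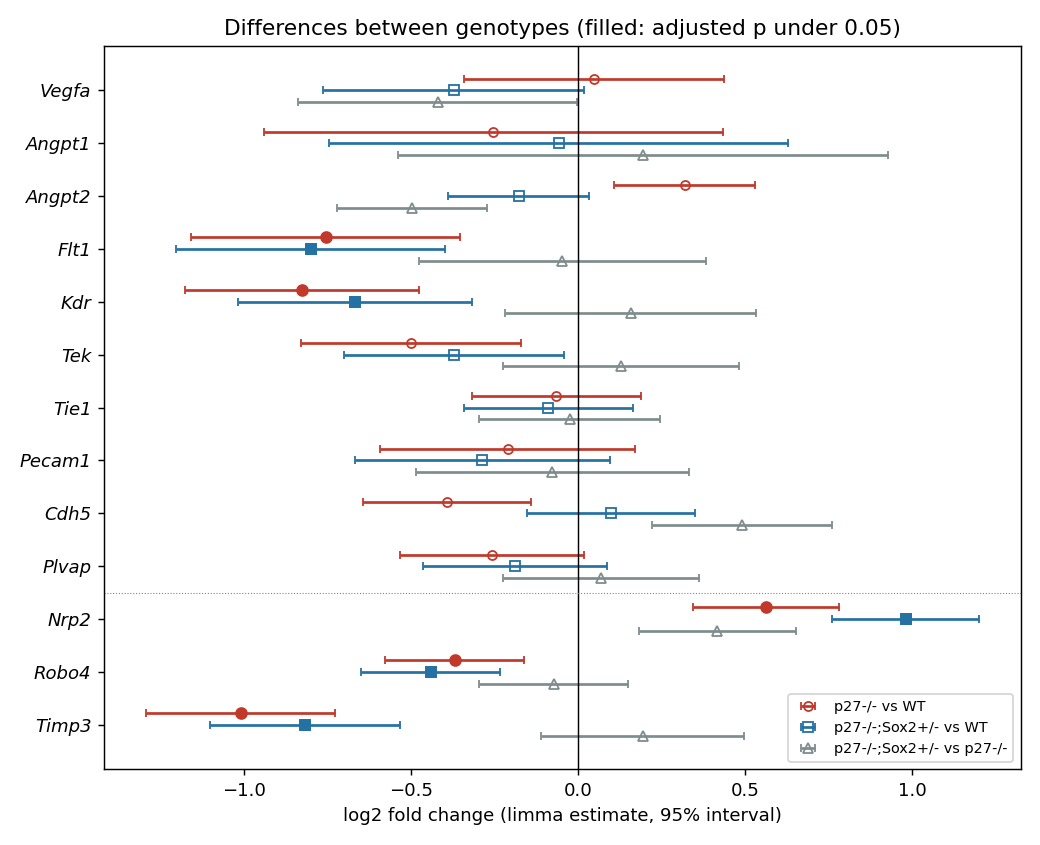
Log2 fold change (x axis, limma estimate with its 95% interval) of the 10 genes, and below the dotted line of Nrp2, Robo4 and Timp3, for p27-/- against WT (red circles), p27-/-;Sox2+/- against WT (blue squares) and p27-/-;Sox2+/- against p27-/- (grey triangles), filled where the adjusted p is under 0.05. Kdr and Flt1 are filled and below 0 in both mutants, and no grey triangle is filled.

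Differences between a pair of genes within a sample set aside any shift that moves both alike. Angpt2 minus Angpt1 was 0.65, -0.36, 0.76 and 0.80 in WT, 0.02, 1.76 and 1.33 in p27-/- and 0.26, 0.77 and -0.0011 in p27-/-;Sox2+/- samples. The low values came from samples with high Angpt1, and all groups overlapped. Vegfa minus Pecam1 was 1.72, 1.72, 2.11 and 2.14 in WT, 2.20, 2.00 and 2.35 in p27-/- and 1.96, 1.90 and 1.65 in p27-/-;Sox2+/- samples. It was higher in every p27-/- than in every p27-/-;Sox2+/- sample, by 0.34 on average, with a two-sided exact permutation p of 0.1, the smallest that 3 against 3 samples allow. Angpt2 minus Pecam1 was higher by 0.53 in p27-/- than in WT (exact permutation p = 0.114), where 3 against 4 samples allow no p under 0.0571. Plvap minus Pecam1 differed from WT by -0.05 in p27-/- and by 0.10 in p27-/-;Sox2+/- samples. After adjustment over the 12 exact tests the smallest p was 0.549.

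**Figure D3:**
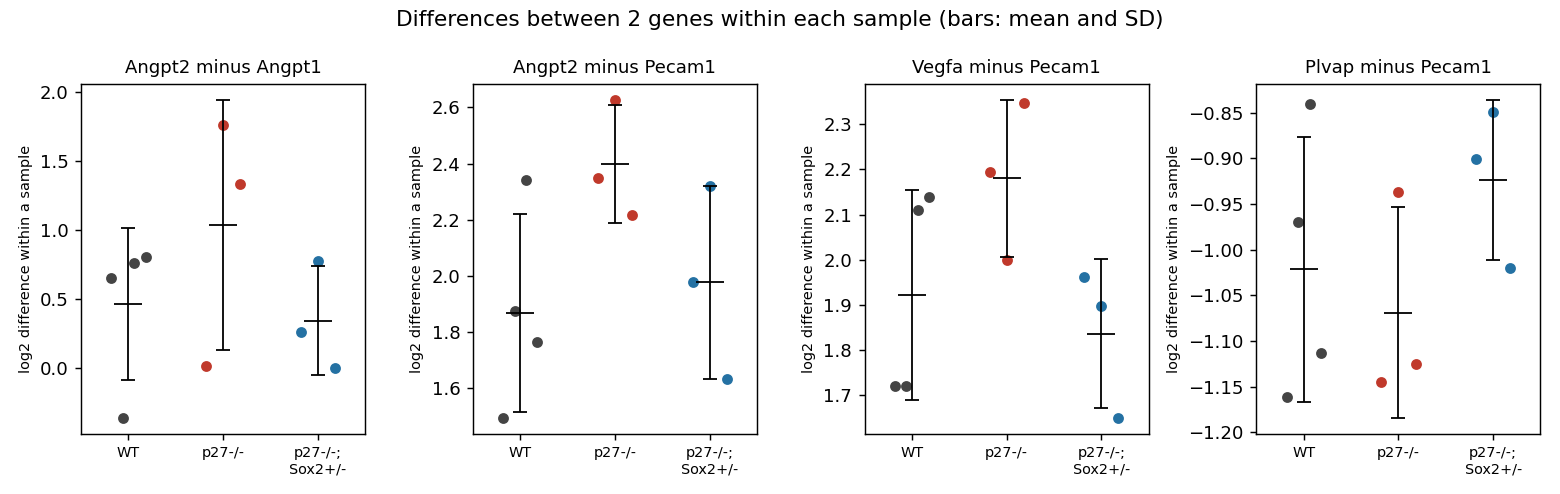
Log2 difference between 2 of the genes within each sample (y axis) for WT (grey), p27-/- (red) and p27-/-;Sox2+/- (blue), 1 point per sample, with bars for the mean and SD. Of the 4 differences, Vegfa minus Pecam1 keeps all p27-/- points above all p27-/-;Sox2+/- points.

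Of 18 other VEGF and angiopoietin pathway genes 17 were tested, and 1, Nrp2, a co-receptor for VEGF and semaphorins, was called, higher in both mutants. Over all tested genes 7.78% were called in p27-/- and 2.71% in p27-/-;Sox2+/- samples, and with 1 of 17 called nothing is read for the group. Nrp2 was 8.77, 8.48, 8.83 and 8.64 in WT, 9.12, 9.29 and 9.32 in p27-/- and 9.75, 9.69 and 9.54 in p27-/-;Sox2+/- samples. The groups did not overlap, with WT lowest and p27-/-;Sox2+/- highest. Nrp2 rose by 0.56 in p27-/- (adjusted p = 0.0062) and, with the larger estimate, by 0.98 in p27-/-;Sox2+/- samples (adjusted p = 0.00048), each called in 22 of 22 other settings. The difference between the mutants was 0.42 (adjusted p = 0.24). Which cells of the bulk tissue held Nrp2 was not tested. Nrp1, Vegfb, Vegfc and Flt4 were among the genes that did not pass.

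Of 32 other endothelial genes 27 were tested, and 24 had estimates below WT in p27-/- and 23 in p27-/-;Sox2+/- samples, with medians of -0.12 and -0.19. Of all 17268 tested genes, 8359 and 8266 had estimates below WT, and 7.78% and 2.71% were called. This list was chosen with earlier results of these data known, so nothing is read from the count of directions. Robo4, an endothelial guidance receptor, was the 1 called, at 4.58, 4.29, 4.28 and 4.35 in WT, 3.99, 3.90 and 4.12 in p27-/- and 3.89, 3.96 and 3.95 in p27-/-;Sox2+/- samples. All mutant samples were below WT. It fell by 0.37 in p27-/- (adjusted p = 0.036, a call kept in 9 of 21 other settings). It fell by 0.44 in p27-/-;Sox2+/- samples (adjusted p = 0.028, kept in 12 of 21). The first call was lost without p27-/-;Sox2+/- replicate 2, any p27-/- replicate or WT replicate 1 or 4 (highest adjusted p = 0.143), and the second without any p27-/-;Sox2+/- replicate or WT replicate 4 (highest adjusted p = 0.112). The posterior lobe marker mean as a covariate ended both (adjusted p = 0.0976 and 0.0704). The endothelial transcription factors Sox17 and Tal1 and the adhesion gene Icam2 did not pass the filter, with means of 2.58, 1.36 and 3.10.

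Of 11 genes used as marks of tip cells, the leading cells of a sprout, 10 were tested. Among them Esm1 had a WT mean of 12.49 against 5.93 for Pecam1, and which cells held it was not tested. The share called over all tested genes was 7.78% in p27-/- and 2.71% in p27-/-;Sox2+/- samples. Apln, a peptide ligand of sprouting endothelium, fell in p27-/- by 0.67 (adjusted p = 0.021, called in 17 of 22 other settings) and was the 1 gene called. This call was lost without any p27-/- replicate or WT replicate 3 (highest adjusted p = 0.0867) and with the posterior lobe markers as a covariate (0.0640). Its fold change in p27-/-;Sox2+/- samples was -0.48 (adjusted p = 0.12), which passed without WT replicate 2 (0.0213). None of 7 tested barrier endothelium genes was called, and Cldn5, the tight junction gene of the blood-brain barrier, did not pass the filter with a mean of 1.83.

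All 10 tested angiogenesis inhibitor genes had estimates below WT in p27-/- and 9 in p27-/-;Sox2+/- samples, where 8359 and 8266 of all 17268 tested genes did. The list was chosen with earlier results of these data known, and both comparisons share the WT samples, so nothing is read from these counts. Of these inhibitor genes 2 and 1 were called, against 7.78% and 2.71% of all tested genes. Timp3, which encodes an inhibitor of matrix metalloproteinases that also blocks VEGF-A from binding KDR, was 11.52, 11.02, 11.52 and 11.39 in WT, 10.42, 10.40 and 10.23 in p27-/- and 10.58, 10.29 and 10.76 in p27-/-;Sox2+/- samples. Every mutant sample was below every WT sample. Timp3 fell by 1.01 in p27-/- samples (adjusted p = 0.00088). In p27-/-;Sox2+/- samples it fell by 0.82 (adjusted p = 0.0073), and this call was lost without p27-/-;Sox2+/- replicate 2 (adjusted p = 0.0509). Adamts1, a secreted protease that binds VEGF-A, fell by 0.82 in p27-/- (adjusted p = 0.038, called in 14 of 22 other settings, and lost without any p27-/- replicate or WT replicate 1, 3 or 4, with 0.126 the highest). With the posterior lobe markers as a covariate it gave -0.60 there and lost its call (adjusted p = 0.0876). Its change in p27-/-;Sox2+/- samples was -0.59 (adjusted p = 0.17), and passed the threshold without WT replicate 2 (adjusted p = 0.0185).

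Mural cells wrap vessels, and none of their 10 tested genes was called, with medians of -0.29 in both mutants. Their mean, centred over the samples, was higher in every WT sample (lowest 0.030) than in every mutant sample. Its highest value was 0.018 in p27-/- and -0.060 in p27-/-;Sox2+/- samples. The list was chosen with earlier results of these data known, so nothing is read from this. Rgs5, a pericyte gene, had the smallest p, with log2 fold changes of -0.63 (adjusted p = 0.13) and -0.83 (adjusted p = 0.085). Neither of the 2 lymphatic genes tested was called, and Lyve1 did not pass the filter with a mean of 1.65. None of the 7 macrophage and leukocyte genes and none of the 3 blood cell genes was called. Among all tested genes 7.78% were called in p27-/- and 2.71% in p27-/-;Sox2+/- samples.

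HIF-1, the hypoxia-inducible factor, controls Vegfa among other genes. Of its 9 other target genes tested, 5 were called in p27-/-, with Ankrd37 (0.60, adjusted p = 0.0074), Kdm3a (0.43, adjusted p = 0.011), P4ha1 (0.50, adjusted p = 0.021) and Bnip3 (0.53, adjusted p = 0.023) higher and Ndrg1 (-0.52, adjusted p = 0.040) lower. In p27-/- 7.78% of all tested genes were called. None of the 9 was called in p27-/-;Sox2+/- samples, where 2.71% of all tested genes were. The median of the 9 was 0.23 there against 0.43 in p27-/-. Of the differences between the mutants none passed the threshold. The HIF-1 list too was chosen with earlier results of these data known, so nothing is read from its counts and medians. Vegfa itself had a fold change of 0.05 in p27-/-. Ankrd37 was called in 22, Kdm3a in 21, Bnip3 in 17, P4ha1 in 16 and Ndrg1 in 9 of 22 other settings. Kdm3a, P4ha1, Bnip3 and Ndrg1 lost their calls without p27-/- replicate 3 (adjusted p = 0.0654, 0.116, 0.104 and 0.180), and the last 3 also without p27-/- replicate 2, WT replicate 3 or WT replicate 4 and with the posterior lobe markers as a covariate (0.0649, 0.0700 and 0.116).

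**Figure D4:**
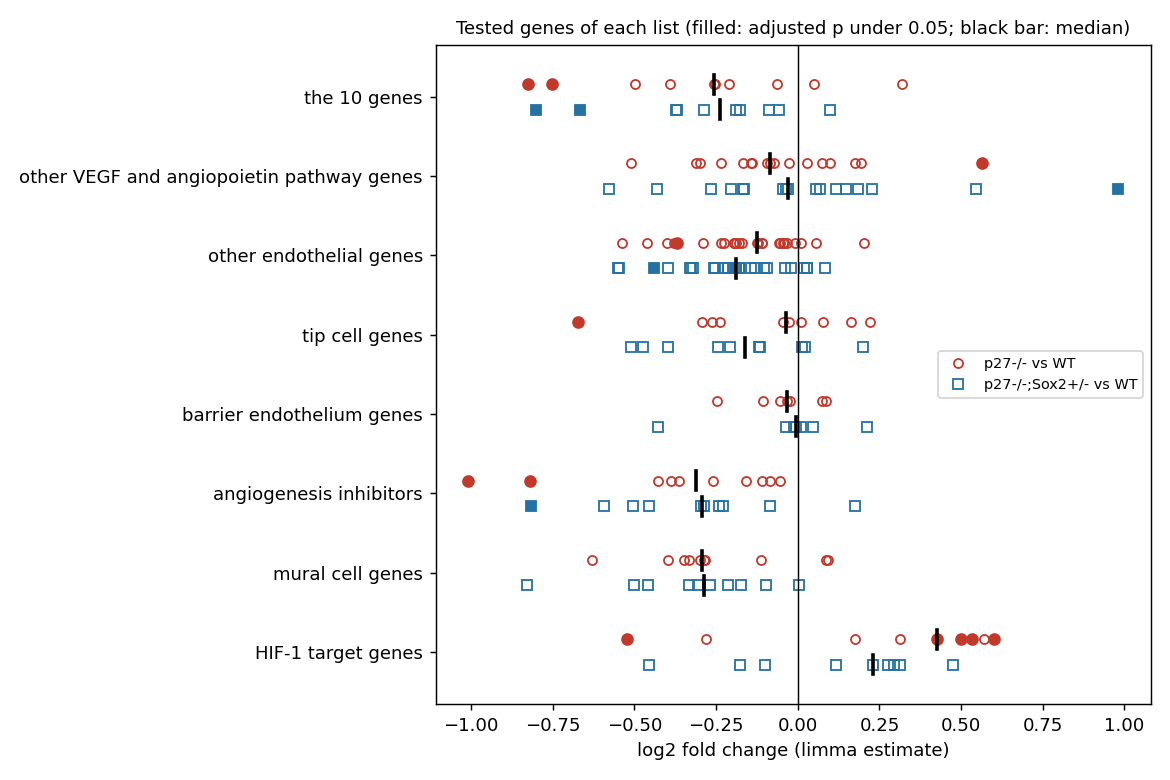
Log2 fold change against WT (x axis, limma estimate) of every tested gene of 8 lists (rows), for p27-/- (red circles) and p27-/-;Sox2+/- (blue squares), filled where the adjusted p is under 0.05, with a black bar at the median. Medians of the 10 genes are -0.26 and -0.24, and the HIF-1 target genes have the medians farthest to the right, 0.43 and 0.23.

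Markers of the adjoining lobes varied between samples of 1 genotype. The mean of the 6 posterior lobe markers, centred over the 10 samples, was 0.43, -0.65, 0.51 and 0.87 in WT, -0.28, -0.19 and -0.16 in p27-/- and -0.67, -0.66 and 0.79 in p27-/-;Sox2+/- samples. WT replicate 2 was low and p27-/-;Sox2+/- replicate 3 high, and no posterior lobe marker was called. The median log2 fold changes of these markers were -0.56 in p27-/- and -0.49 in p27-/-;Sox2+/- samples, with 5 of the 6 lower in each. Those of all tested genes were 0.0087 and 0.0098. With this mean as a covariate Kdr in p27-/- gave -0.73 and kept its call (adjusted p = 0.0319), and Flt1 gave -0.59 and lost it (adjusted p = 0.0764). In p27-/-;Sox2+/- samples both lost it (adjusted p = 0.113 for Kdr and 0.0771 for Flt1).

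The mean of the 7 tested anterior lobe markers ranged from -0.29 to 1.68 in WT, from -0.79 to 0.60 in p27-/- and from -0.72 to 0.04 in p27-/-;Sox2+/- samples. Fshb, a gonadotroph hormone gene, fell in both mutants, with log2 fold changes of -2.04 (adjusted p = 0.028) and -2.27 (adjusted p = 0.029), calls kept in 13 and 12 of 22 other settings, and was the 1 called of the 7. With a sample left out its adjusted p reached 0.123 and 0.162. The shares called over all tested genes were 7.78% and 2.71%. With the anterior lobe marker mean as a covariate both receptor genes kept their calls in p27-/- (adjusted p = 0.0130 for Kdr and 0.0321 for Flt1) and lost those in p27-/-;Sox2+/- samples (0.0654 and 0.0523). Without WT replicate 2 and p27-/- replicate 1, a removal chosen after seeing the data, Kdr kept its call in p27-/- (adjusted p = 0.0406) and Flt1 gave -0.80 there (adjusted p = 0.0717), and both kept theirs in p27-/-;Sox2+/- samples (0.0462 for Kdr and 0.0394 for Flt1). Of the 5 melanotroph markers, Pcsk2, a prohormone protease gene, rose by 0.53 in p27-/- (adjusted p = 0.035, kept in 11 of 22 settings). Neither of the stem cell markers Sox2 and Sox9 was called. Their centred mean was also higher in every WT sample (lowest 0.021) than in every mutant sample. Its highest value was 0.0095 in p27-/- and -0.015 in p27-/-;Sox2+/- samples.

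**Figure D5:**
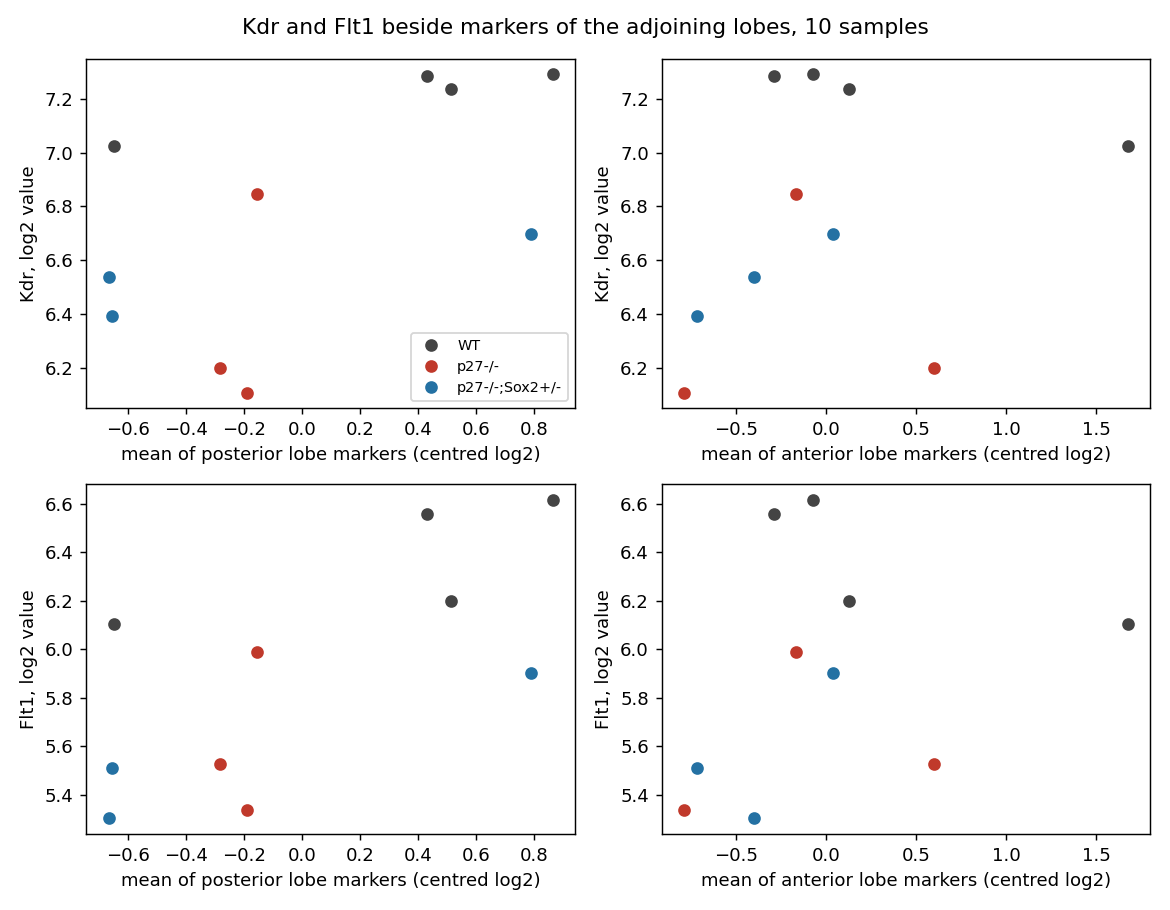
Log2 values of Kdr (top) and Flt1 (bottom) (y axis) against the centred mean of the posterior lobe markers (left) and anterior lobe markers (right) (x axis) in the 10 samples, in grey for WT, red for p27-/- and blue for p27-/-;Sox2+/-. WT replicate 2, at -0.65 on the left and 1.68 on the right, has the lowest Kdr and Flt1 of WT and is above all mutant samples.

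The mean of the 7 receptor and marker genes, centred over the samples, was 0.38, 0.12, 0.03 and 0.37 in WT, -0.25, -0.36 and 0.01 in p27-/- and -0.17, -0.25 and 0.11 in p27-/-;Sox2+/- samples. Every WT sample was above all p27-/- samples, the nearest at 0.03 and 0.01, and p27-/-;Sox2+/- replicate 3 lay within the WT range. This mean includes Kdr and Flt1, the genes called. The mean of the 27 other tested endothelial genes overlapped between WT (lowest -0.020) and the mutants. Its highest value was -0.0012 in p27-/- and 0.0018 in p27-/-;Sox2+/- samples. The genes outside the 10 with the most similar pattern over the 10 samples were Pgr15l (Pearson r = 0.964), Chsy1 (0.948), C1s (0.948), Igfbp3 (0.929), Fgf10 (0.922), Lrrk1 (0.918), Efna1 (0.912) and Gsn (0.906). These values describe 10 points that share their genotypes.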

How the data were processed

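Total RNA of dissected IL was amplified to cDNA and sequenced, with the mouse as the unit of sampling in the study's methods. The authors aligned the reads with STAR 2.5.2a, estimated counts with RSEM 1.3.30 on the Ensembl transcriptome of GRCm38, normalised with DESeq2 1.18.1, and the deposited table gives 29527 genes as log2 values. The step to log2 is not given in the sources used here. RSEM ran with a forward probability that treats reads as unstranded, so reads of genes that overlap on opposite strands cannot be told apart. The values are not counts, so the depth per sample is unknown from them, and the number of samples limits the precision. Symbols were matched to 22709 of the gene IDs by Ensembl ID. Listed symbols not found that way were looked up through RefSeq synonyms, and the positions given are those of RefSeq on GRCm38.p6.

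The 17268 genes whose linear mean was 10 or more (3.32 as log2) were tested with limma 3.58.1 (R 4.3.3), the 10 samples in 1 fit. The variance followed a trend with the mean, and p-values were adjusted after Benjamini and Hochberg with a threshold of 0.05. Within-sample differences were tested by exact permutation (Python 3.11.15, scipy 1.17.1, pandas 2.3.3, numpy 2.4.6) and figures made in matplotlib 3.10.9.

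The 10 genes and the 14 other lists were chosen with earlier results of these data known. From each other list, the genes named are those past the threshold in any comparison (at most 8), or the 2 with the smallest p, and some uncalled genes were added after their values were seen. The 8 genes most alike in pattern were ranked by Pearson r. The alternatives were quantile normalization, median centring, array (sample) weights, no trend, no filter, a minimum mean of 50, fits that held only the compared groups, a replicate block, Xist or the lobe markers as covariates, and each sample left out. The largest sample weight was 3.46, for p27-/-;Sox2+/- replicate 2, and the other samples had weights from 0.45 to 1.51. Removal of the 2 samples with the highest anterior lobe markers was added after seeing the data. Pseudocounts and count tests could not be applied to log2 values.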

Additional observations from a re-analysis of the deposited data

Results flagged for a closer look

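In 26 measures checked in WT for a sample far from the rest, 4 had one, where about 1.3 come by chance, and all 4 were WT replicate 2, with Angpt1 in 2 of the measures. The gap to the nearest sample, as a share of the range, was 0.936 for Angpt1 (8.06 against 7.07 to 7.13 in the other WT samples), 0.867 for Angpt2 minus Angpt1 (-0.36 against 0.65 to 0.80), 0.853 for Adamts1 (7.01 against 7.85 to 7.999) and 0.884 for Bnip3 (8.81 against 8.38 to 8.43). The same sample had the highest mean of anterior lobe markers, 1.68, and the part of that tissue in these values was not tested.

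Angpt2 lay on opposite sides of WT in the mutants. It differed from the WT mean by 0.21 to 0.41 in the p27-/- samples and by -0.23 to -0.11 in the p27-/-;Sox2+/- samples. The difference between the mutants was -0.497, with an adjusted p of 0.116.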

How the results depend on the processing

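All genes called past the threshold, 1343 in p27-/- and 468 in p27-/-;Sox2+/- samples, both against WT, and 25 between the mutants, became 831, 312 and 6 with no filter, 807, 260 and 45 with only the groups compared, 595, 209 and 2 with the replicate block, 601, 263 and 21 with the posterior lobe covariate, 1764, 1240 and 283 with sample weights and 772, 520 and 7 without the samples highest in anterior lobe markers, and between the mutants 8 with no trend and 15 after quantile normalization. With a sample left out they ranged from 403 to 1709, 80 to 658 and 0 to 41. Calls among the 10 genes were 2, 2 and 0. In p27-/- they became 5 with sample weights and 1 with the replicate block, the posterior lobe covariate or the samples highest in anterior lobe markers removed. They became, in p27-/-;Sox2+/- samples, 1 with median centring or Xist as a covariate and 0 with no filter, quantile normalization, the replicate block or either lobe covariate, and between the mutants 2 with sample weights. With a sample left out they ranged from 0 to 3, 0 to 2 and 0 to 0. Same-numbered samples did not deviate together (r from -0.24 to 0.18, 1 of 9 pairs over 0.1), so the number was taken as a name. With the block Flt1 lost its calls (adjusted p = 0.0668 and 0.0834) and Kdr that in p27-/-;Sox2+/- samples (0.0686).

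Uncalled estimates that changed sign were Plvap between the mutants (-0.054 with sample weights), Angpt1 in p27-/- (0.094) and p27-/-;Sox2+/- samples (0.46) with the anterior lobe covariate, Tie1 in p27-/- (0.0039 with the posterior lobe covariate), and, without the samples highest in anterior lobe markers, Vegfa in p27-/- (-0.0299) and Angpt1 in p27-/-;Sox2+/- samples (0.18). The causes were not tested.
With a sample left out, estimates whose range included both signs, none of them called, were Flt1 between the mutants (-0.21 to 0.14), Angpt1 in p27-/-;Sox2+/- (-0.22 to 0.18), Tie1 in p27-/-;Sox2+/- (-0.17 to 0.0006), Tie1 between the mutants (-0.10 to 0.0652), Pecam1 between the mutants (-0.24 to 0.0605), Plvap between the mutants (-0.0443 to 0.17), Angpt1 in p27-/- (-0.71 to 0.064), Tie1 in p27-/- (-0.14 to 0.0047), Angpt1 between the mutants (-0.12 to 0.65), Vegfa in p27-/- (-0.14 to 0.21), Angpt2 minus Pecam1 in p27-/-;Sox2+/- (-0.0629 to 0.28), Angpt2 minus Angpt1 in p27-/-;Sox2+/- (-0.39 to 0.0527), Vegfa minus Pecam1 in p27-/-;Sox2+/- (-0.15 to 0.008) and Plvap minus Pecam1 in p27-/- (-0.11 to 0.0125).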
